A study of Mus musculus with 1 sample.

Results

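The intermediate filament genes Nes, Vim, Gfap, Ina, Nefl, Nefm and Nefh were described across the cell types of the newborn mouse cortex. They were chosen by symbol, and all 7 were found among the 51912 genes of the table. The data were sc-RNA Seq (single-cell RNA sequencing) counts of 1 wild-type (WT) library from the cerebral cortex of C57BL/6 mice at P0, the day of birth. The tissue was dissociated, cells were captured in droplets with a 10x Genomics Chromium kit, and each captured transcript was counted once by its unique molecular identifier (UMI). The labels give no number of animals and no sex, and the knock-in samples that the study also describes were not analysed here. The design text speaks of triplicates, and whether the cells of this table were pooled from several animals is not stated. As there was 1 library, no difference could be set against the spread between animals, and all intervals below are exact 95% intervals that cover counting error only.

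Intermediate filaments are rope-like polymers that give a cell its mechanical strength. Radial glia, the stem cells of the developing cortex, build theirs from nestin (Nes) and vimentin (Vim), and astrocytes add glial fibrillary acidic protein (Gfap). Neurons replace these with alpha-internexin (Ina) and with the light, medium and heavy neurofilament chains (Nefl, Nefm and Nefh), which fill the axon and set its caliber.

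The library held 11062 cells and 90346034 UMIs, and a cell held from 500 to 92061 UMIs. Of these cells, 11058 were kept, and 6104 (55.2%) were placed in 18 gates by the UMIs of marker genes, none of which was an intermediate filament gene. A further 4918 cells, with a median of 2457 UMIs, were placed in no gate, as they met no limits or held marker UMIs of several classes or layers. They held 53.8% of the Nefl UMIs, 52.3% of Nefm, 36.5% of Nefh, 30.9% of Ina, 26.1% of Gfap, 23.4% of Nes and 20.1% of Vim. The comparisons between gates leave these UMIs out. Cells that met the radial glia limits (10 or more UMIs over at least 4 of its marker genes) were kept out of the newborn, inhibitory and layered neuron gates. All gate names below mean "-like", since they rest on markers alone. Marker genes that no gate used bore out most names. Lum, a fibroblast gene, was at 0 in the gate called vascular and fibroblast, where the vascular genes Kdr and Pecam1 were at 568 and 420.4 CPM. Markers were also weak for layer IV, where Whrn was at 1.31 CPM (counts per 1e+06 UMIs of the gate, without mitochondrial genes), and for layer V, where Parm1 was at 0.29 CPM and Pcp4, at 156 CPM, was higher in 3 other gates. The layer V gate ranked 6 of 18 for Etv1, the layer VI gate 6 for Nfia and 3 for Sulf1, the newborn gate 8 for Btg2, and the gate of upper-layer neurons without Igfbpl1 ranked 14 for Unc5d. Scrublet, a program that marks likely doublets (droplets with 2 cells), marked 438 cells, and between 0% and 12.1% of the cells of a gate.

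The 7 genes were grouped by their known roles into progenitor filaments (Nes, Vim and Gfap) and neuronal filaments (Ina, Nefl, Nefm and Nefh). Over the 18 gates, log2(CPM + 10) of Nes and Vim ran together (Pearson's r = 0.97 over 18 gates) and that of Nes and Ina ran in opposite directions (r = -0.93). Nefl and Nefm, whose genes are adjacent protein-coding genes on chromosome 14 in the RefSeq annotation of GRCm38.p6, also ran together (r = 0.91). Gfap followed Nes (r = 0.62) and Vim (r = 0.61) less closely, and Nefh followed Nefl (r = 0.41) and Nefm (r = 0.32) only weakly. These correlations are descriptions, since all gates come from the same library. Those of Nefh rest on few UMIs, as it was at 8.75 CPM or less in every gate, below the 10 CPM added to each level. Those of Gfap rest mainly on radial glia, at 55.9 CPM against 11.0 CPM or less in the other gates. The 250 bases before the RefSeq start site of Nes, Vim and Ina are shown because these 3 genes mark the switch, and a promoter was found in the RefSeq table for 4 of the 7 genes. Capitals mark matches to 3 promoter motifs on either strand, none of which overlapped. The TATA box was searched for by the letters TATAAA. The CCAAT box was searched for by the letters of its name. The GC box was searched for by the letters GGGCGG, and a match on the minus strand is printed as its reverse complement.
Nes, GRCm38.p6 chr3:87970843-87971092, plus strand: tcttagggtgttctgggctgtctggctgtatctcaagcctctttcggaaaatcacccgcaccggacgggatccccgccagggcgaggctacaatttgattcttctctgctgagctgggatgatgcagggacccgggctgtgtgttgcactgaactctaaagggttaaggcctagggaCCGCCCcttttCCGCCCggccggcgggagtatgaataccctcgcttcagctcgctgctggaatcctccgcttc
Vim, GRCm38.p6 chr2:13574061-13574310, plus strand: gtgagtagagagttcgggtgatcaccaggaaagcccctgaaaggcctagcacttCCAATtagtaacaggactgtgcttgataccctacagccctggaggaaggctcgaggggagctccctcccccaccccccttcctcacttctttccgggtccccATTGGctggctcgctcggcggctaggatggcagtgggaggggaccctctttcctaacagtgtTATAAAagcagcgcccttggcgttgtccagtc
Ina, GRCm38.p6 chr19:47014431-47014680, plus strand: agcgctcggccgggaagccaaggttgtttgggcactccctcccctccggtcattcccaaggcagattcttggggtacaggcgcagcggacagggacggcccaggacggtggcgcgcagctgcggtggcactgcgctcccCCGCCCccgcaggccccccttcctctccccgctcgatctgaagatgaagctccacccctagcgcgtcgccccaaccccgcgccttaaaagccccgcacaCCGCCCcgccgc

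Although Nes and Vim ran together, these letters differed between them. Vim held a TATA box from position -32 to -27 before its start site, and 2 CCAAT boxes. Nes and Ina, which ran in opposite directions, each held 2 GC boxes and neither of the other motifs. Among the 32851 promoters of the table, 12.4% held the TATA box letters, 33.8% the CCAAT box and 32.7% the GC box within the same length, so that each match is a common one and describes the sequence only.

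Vim was the leading filament transcript of the radial glia. The radial glia gate (259 cells, which could be radial glia or astrocytes) held 3216 Vim UMIs, or 1872 CPM (1808 to 1938). In the 4619 neurons that were placed in a layer, Vim was at 6.64 CPM, which is 282-fold (250 to 318) lower. Excitatory neurons in no gate are not part of this ratio, and held more Vim, at 28.3 CPM in 1574 cells and 113 CPM in 664 cells. The layered gates were cleared of cells that met the radial glia limits, and how far this lowers their Vim and Nes was not tested. Nes was at 293 CPM (268 to 319) in radial glia and at 10.8 CPM in layered neurons, a 27.0-fold difference (23.8 to 30.6). Gfap was at 55.9 CPM (45.3 to 68.2) in radial glia, while 2 Gfap UMIs were found among all layered neurons, a ratio of 1270.3 with an interval from 342 to 10639.5. The neuronal genes had the opposite order. Ina was at 13.4 CPM in radial glia and at 311 CPM in layered neurons, Nefl at 3.49 and 56.4 CPM, and Nefm at 6.40 and 73.2 CPM. Nefh had 0 UMIs in radial glia, which allows up to 1.75 CPM, and was at 3.01 CPM in layered neurons. Thus, of the 6 members that reached 10 CPM in radial glia or layered neurons, 3 were at least 2-fold higher in radial glia (against 23.3% of the 10555 genes at that level) and 3 were at least 2-fold lower (against 20.2%).

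To see whether single cells carried the same pattern, each cell was thinned to 2000 UMIs so that depth was equal, and shallower cells were left out. Vim was then found in 90.6% of 235 radial glia (94.6% before thinning), with a median of 3 UMIs per cell, and in 1.38% of layered neurons. Nes was found in 43.8% of radial glia. Ina was found in 3.40% of radial glia and in 6.00% of 50 vascular and fibroblast cells, a cell type that should lack it, and the median UMIs of these gates were 6921 and 7150. The Ina share in radial glia was thus not above that in vascular cells. Microglia, which should lack Ina too, held 21 Ina UMIs, or 137 CPM, in 7 of 31 cells (median 2469 UMIs). A single microglial cell held 8 of these UMIs, and without it Ina was at 89.7 CPM (47.8 to 153). Of the radial glia, 88.9% held UMIs of Nes, Vim or Gfap alone, 4.68% also held a neuronal filament UMI, and 0.426% held neuronal UMIs alone.

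As a share of their UMIs, dividing radial glia-type cells held less Vim and Gfap than radial glia, but not measurably less Nes. The dividing cells had a median of 10653 UMIs against 6921 in radial glia, so that these shares do not give the amount per cell. The dividing radial glia-type gate (44 cells with UMIs of both radial glia and mitosis genes) held Nes at 283 CPM (237 to 335), against 293 CPM in radial glia that were not dividing, a ratio of 0.967 (0.793 to 1.17). Vim was lower, at 1191 CPM and a ratio of 0.636 (0.581 to 0.696). Gfap was lower still, with 4 UMIs and 8.38 CPM, a ratio of 0.150 (0.0401 to 0.397). Gfap was the 1 of 4 members at 10 CPM or more that was at least 2-fold lower (against 10.9% of the 10139 genes at that level). Nuclear lamins are the intermediate filaments of the nuclear envelope, and they had another order. Lmnb1, which encodes lamin B1, was at 901 CPM in the dividing cells and at 58.8 CPM in radial glia, a ratio of 15.3 (12.3 to 19.2). Lmnb2 was at 21.0 and 5.24 CPM, whereas Lmna was at 21.0 and 30.9 CPM with an interval of the ratio from 0.308 to 1.35.

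Dividing cells with UMIs of Eomes and other neurogenic genes, the intermediate progenitors that divide to give neurons, lay between radial glia and newborn neurons for Nes and Vim. These 30 cells held Nes at 107 CPM (75.9 to 146) and Vim at 345 CPM (287 to 411). However, a single cell held 78 of their 126 Vim UMIs, and without it Vim was at 138 CPM (102 to 183). After thinning, Vim was found in 23.3% of these cells and in 74.4% of the dividing radial glia-type cells. The newborn gate left out cells that met the radial glia limits, whereas the dividing Eomes gate did not. How far the order of Nes and Vim follows from this rule was not tested. Dividing inhibitory cells (36 cells) held Nes at 95.2 CPM and Vim at 248 CPM. Nefl had 0 UMIs in both dividing gates with radial glia or Eomes markers, which allows up to 6.29 and 8.22 CPM.

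Newborn neurons held UMIs of both sets, though much of the neuronal set lay in likely doublets. The 215 Eomes newborn neurons fell below the limits of the dividing gates, which does not show that all of them had left the cell cycle. They held Vim at 50.7 CPM (40.7 to 62.3), Nes at 26.2 CPM (19.2 to 34.9) and Gfap at 5.12 CPM. Vim was thus 7.63-fold (5.95 to 9.69) higher than in layered neurons and 36.9-fold (29.9 to 46.1) lower than in radial glia. The neuronal genes were at 76.3 CPM for Ina, 13.7 CPM for Nefl and 26.8 CPM for Nefm. Layered neurons held 4.08-fold (3.44 to 4.87) more Ina, 4.13-fold (2.77 to 6.46) more Nefl and 2.73-fold (2.05 to 3.73) more Nefm. Of 5 members at 10 CPM or more, these 3 were at least 2-fold higher in layered than in newborn neurons (against 8.37% of 9777 genes) and Nes and Vim were at least 2-fold lower (against 9.5%).

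The newborn values depended on few cells and on whether the cells marked by Scrublet were kept. Scrublet was given the 7 genes among the others, and whether a marked cell was a true doublet was not tested. Scrublet marked 26 of the 215 newborn neurons, and these held 22 of the 24 Nefl UMIs, 32 of the 47 Nefm UMIs and 85 of the 134 Ina UMIs, but 11 of the 89 Vim UMIs. Without the marked cells Nefl was at 1.59 CPM, from 2 UMIs, and layered neurons were higher by 35.2-fold (9.74 to 291). In radial glia over newborn neurons the Nefl ratio turned from 0.256 (0.0854 to 0.642) to 2.19 (0.392 to 22.2), and the Nefm ratio went from 0.239 (0.112 to 0.468) to 0.537 (0.223 to 1.25). In layered over newborn neurons the ratio became 7.86 (5.94 to 10.6) for Ina and 6.01 (3.64 to 10.7) for Nefm. The share of Nes, Vim and Gfap among all intermediate filament UMIs of newborn neurons moved from 40.7% (35.5 to 46.0) to 64.8% (57.6 to 71.5). The Vim ratio of newborn over layered neurons was 9.51 (7.30 to 12.3) without marked cells, 14.6 under stricter limits on marker UMIs and 4.96 under looser limits. The Nefm ratio ranged likewise from 1.72 under stricter to 4.34 under looser limits. The ratios between newborn and layered neurons kept their direction, while that of Nefl between radial glia and newborn neurons did not.

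**Figure D1:**
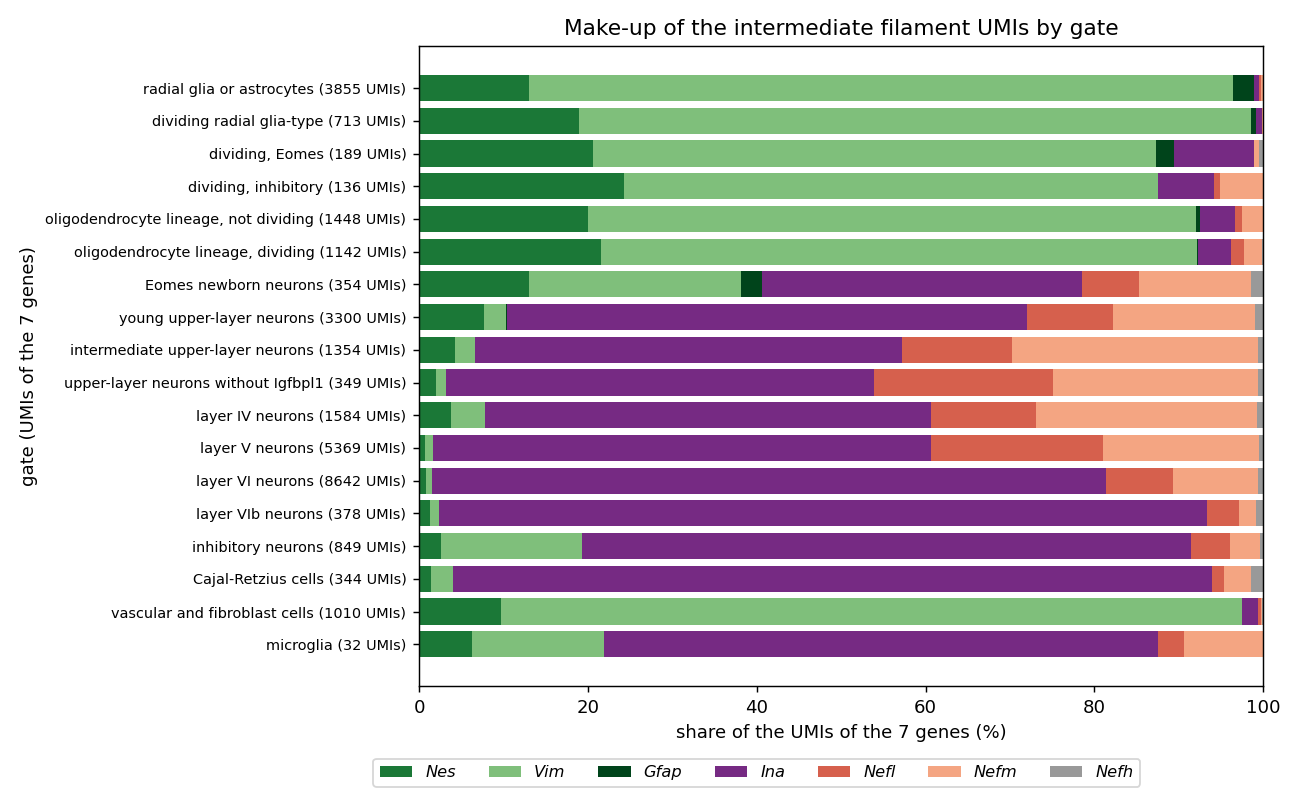
Make-up of the intermediate filament UMIs in each gate, as the share (%) of the UMIs of the 7 genes, with their number beside the gate. A UMI counts a captured transcript once whatever its length. Nes, Vim and Gfap made up 99.0% in radial glia, 40.7% in Eomes newborn neurons and 1.56% in layer VI neurons.

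At 2000 UMIs per cell, most newborn neurons held no UMI of either kind, so that a cell with UMIs of 1 kind is not shown to lack the other. After thinning, Ina was found in 7.48% of newborn neurons, close to the 6.00% of vascular and fibroblast cells. Of 214 newborn neurons, 32 held progenitor filament UMIs alone, 21 (9.81%) neuronal ones alone and 3 (1.40%) both, while 158 (73.8%) held no UMI of the 7 genes. Of the 89 Vim UMIs, 58.4% lay in 10 cells. Newborn neurons with a Vim UMI had a higher summed level of the 14 radial glia genes than those without, 1066 against 631 CPM (ratio 1.69, interval 1.49 to 1.91). In young upper-layer neurons the same ratio for Vim was 0.757 (0.672 to 0.850), in layer IV 0.789 (0.631 to 0.978) and in all layered neurons 0.916 (0.867 to 0.966). Some of the 14 genes were also used to keep radial glia out of the newborn gate, and the part of the list in the Vim level was not tested.

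**Figure D2:**
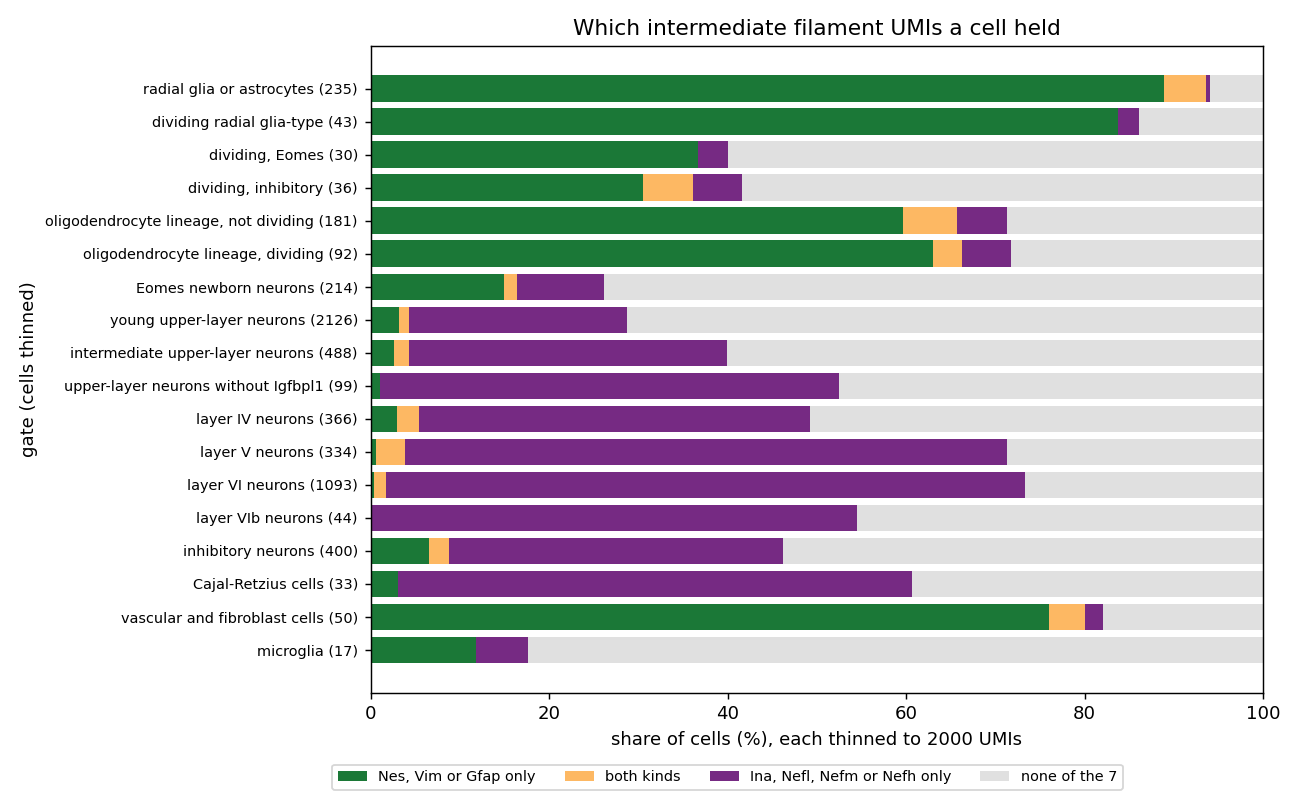
Share of cells (%) with UMIs of progenitor filaments alone, of both kinds, of neuronal filaments alone or of none, with each cell thinned to 2000 UMIs and the number of cells beside the gate. Cells with both kinds were at most 6.08% of a gate, in the oligodendrocyte lineage, and neuronal filaments alone were found in 71.5% of layer VI neurons.

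Nes was low in young neurons, and Vim lower. Young upper-layer neurons, with 5 or more UMIs of Igfbpl1, a gene of immature neurons, held Nes at 16.0 CPM (14.1 to 18.1) from 254 UMIs, and Vim at 5.48 CPM (4.39 to 6.76) from 87 UMIs. Radial glia held 6.39 Vim UMIs for each Nes UMI (5.82 to 7.04), vascular and fibroblast cells 9.05 (7.34 to 11.3), newborn neurons 1.93 (1.34 to 2.83) and young upper-layer neurons 0.343 (0.265 to 0.439). Young neurons with a Nes UMI had the summed radial glia genes at 638 CPM and those without at 643 CPM, a ratio of 0.992 (0.934 to 1.05). Scrublet marked 4.09% of the young neurons with a Nes UMI and 0.879% of those without. Without the marked cells 243 Nes UMIs were left, at 15.6 CPM. After thinning, a Nes UMI was found in 3.01% of young neurons, which is not above microglia, a cell type that should lack it, with 1 of 17 thinned cells and 13.1 CPM (1.58 to 47.2). The young share stood against 2.46% of intermediate upper-layer and of layer IV neurons, 0.915% of layer VI neurons and 1.50% of layer V neurons. Nes was at 14.1 CPM in intermediate upper-layer neurons and at 13.1 CPM in layer IV neurons, and did not differ beyond counting error between young and intermediate neurons. Nes was at 14.9 CPM (13.4 to 16.5) in all upper-layer gates and at 5.70 CPM (4.70 to 6.84) in the deep layers, a ratio of deep over upper of 0.383 (0.308 to 0.473).

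**Figure D3:**
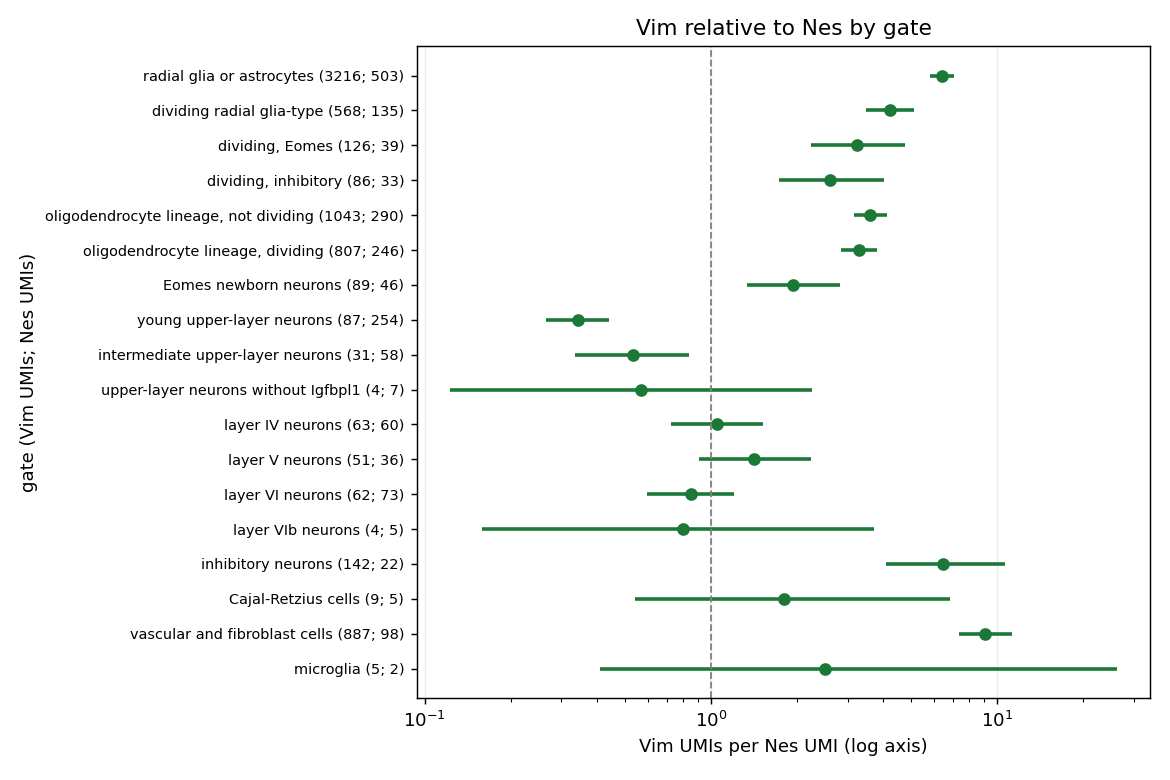
Vim UMIs per Nes UMI in each gate on a log axis, with exact 95% intervals and the UMIs of both genes beside the gate. The ratio was 6.39 in radial glia, 6.45 in inhibitory neurons and 0.343 in young upper-layer neurons, and the dashed line marks equal numbers.

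Ina was the most abundant neuronal filament transcript in young neurons. In young upper-layer neurons Ina was at 128 CPM (123 to 134), with UMIs in 20.3% of thinned cells, against 6.00% of vascular and fibroblast cells. Microglia, a cell type that should lack Ina, held it at 137 CPM, which did not differ from young neurons beyond counting error. A single microglial cell held 8 of their 21 Ina UMIs, and without it Ina was at 89.7 CPM (47.8 to 153). In young neurons Nefl was at 21.2 CPM (19.0 to 23.5) in 2.59% of thinned cells, and Nefm at 34.8 CPM (32.0 to 37.8) in 4.19%. This Nefm level did not differ beyond counting error from the 26.9 CPM of oligodendrocyte lineage cells that were not dividing. For Nefl, 1 of 50 vascular and fibroblast cells and 0 of 235 radial glia held a UMI after thinning, and Nefl was at 4.15 CPM in all vascular and fibroblast cells. Intermediate upper-layer neurons, with 1 to 4 UMIs of Igfbpl1, held Ina at 166 CPM, Nefl at 43.0 CPM and Nefm at 95.7 CPM. Upper-layer neurons without Igfbpl1 (109 cells) held Ina at 204 CPM, Nefl at 85.2 CPM and Nefm at 97.8 CPM. From the young gate to the gate without Igfbpl1, Nefl was 4.03-fold (3.09 to 5.19) higher, Nefm 2.81-fold (2.21 to 3.54) and Ina 1.59-fold (1.36 to 1.85). Nefl and Nefm were thus 2 of 4 members at least 2-fold higher, against 6.6% of 9324 genes. Nefm differed mainly between the young and the intermediate gate, and its intervals in the intermediate gate (86.5 to 106) and in the gate without Igfbpl1 (78.1 to 121) overlapped. In this last gate Nr4a2, a marker of layer VIb that the gate did not use, was at 237 CPM, and Unc5d, a marker of layers II and III, at 13.8 CPM.

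Deep-layer neurons together held more Ina and Nefl than upper-layer neurons. Ina was at 520.4 CPM (510.5 to 531) in the 1471 neurons of layers V, VI and VIb and at 147 CPM (142 to 152) in the 3148 upper-layer and layer IV neurons, a ratio of 3.55 (3.42 to 3.68). Nefl was at 89.1 and 30.8 CPM, a ratio of 2.90 (2.66 to 3.16). Nefm was at 93.9 and 56.9 CPM, a ratio of 1.65 (1.54 to 1.77), and Nefh at 4.10 and 2.16 CPM, a ratio of 1.90 (1.33 to 2.72). With stricter limits on marker UMIs the Nefh ratio was 1.40, with an interval from 0.922 to 2.14 that holds 1. Of 4 members at 10 CPM or more, Ina and Nefl were at least 2-fold higher in deep layers (against 6.22% of 9307 genes), and Nes was at least 2-fold lower (against 3.63%). Much of the upper-layer group was young, with 2153 of its 3148 neurons in the young gate. Against the upper-layer neurons without Igfbpl1 alone, layer VI still held 2.76-fold (2.38 to 3.23) more Ina, but less Nefl, with a ratio of 0.649 (0.510 to 0.837), and less Nefm, with a ratio of 0.731 (0.584 to 0.924). Layer V held more of all 3 than these neurons, with ratios of 2.26 (1.94 to 2.64) for Ina, 1.86 (1.47 to 2.39) for Nefl and 1.48 (1.18 to 1.87) for Nefm. Maturity was not matched here either, since Igfbpl1 was at 484 CPM in layer VI and 201 CPM in layer V, and at 0 in the upper-layer gate chosen for its absence. In all of these comparisons the maturity of the neurons and their layer cannot be told apart.

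Within the deep layers, each layer had its own mixture. Layer V, whose neurons send the long axons to the brainstem and spinal cord, held Nefl at 158 CPM (149 to 168) and Nefm at 144 CPM (136 to 154). In layer VI Nefl was at 55.3 CPM (51.2 to 59.6) and Nefm at 71.5 CPM (66.8 to 76.4), so that layer V was higher by 2.86-fold (2.60 to 3.16) for Nefl and by 2.02-fold (1.84 to 2.22) for Nefm. Ina had the reverse order, at 460.1 CPM in layer V and 563 CPM in layer VI, a ratio of 0.817 (0.783 to 0.852). Nefl and Nefm were 2 of 3 members at least 2-fold higher in layer V, against 2.04% of 9243 genes. After thinning, Nefl was found in 21.0% of layer V and 7.59% of layer VI neurons. Ina was found in 57.2% and 67.7%. Nefl and Nefm were found together in 8.38% of layer V and 1.28% of layer VI neurons. In layer VIb, the deepest layer, 44 neurons held Ina at 397.5 CPM (357 to 442) but Nefl at 16.2 CPM and Nefm at 9.24 CPM, which were 0.292 (0.159 to 0.494) and 0.129 (0.0557 to 0.256) of their levels in layer VI. These were 2 of 3 members at least 2-fold lower, against 7.2% of 9477 genes. Layer IV held Nefl at 42.7 CPM, Nefm at 90.6 CPM and Ina at 183 CPM.

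**Figure D4:**
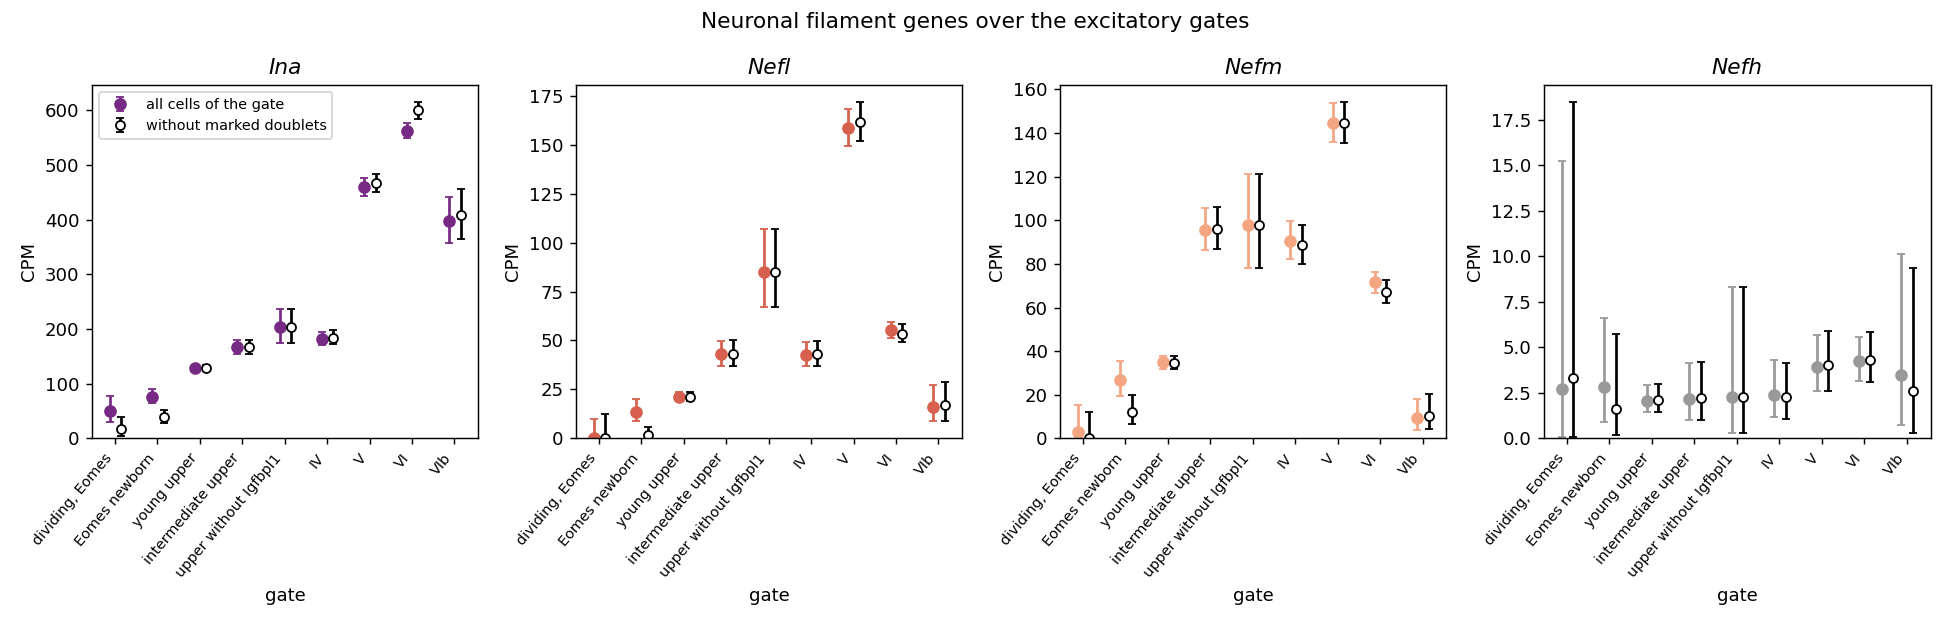
Ina, Nefl, Nefm and Nefh (CPM) over the excitatory gates, with all cells of a gate (filled) and without the cells that Scrublet marked (open), and exact 95% Poisson intervals. Nefl and Nefm had their highest level in layer V (158 and 144 CPM) and Ina in layer VI (563 CPM), and marked cells mattered most in the Eomes newborn gate, where Nefl was at 13.7 CPM with them and 1.59 CPM without.

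Nefh, the heavy chain, was scarce at P0. The whole library held 244 Nefh UMIs, against 5800 of Nefl and 7365 of Nefm. Its level was 8.75 CPM (2.84 to 20.4) in Cajal-Retzius cells, from 5 UMIs, 4.24 CPM (3.17 to 5.56) in layer VI, 3.92 CPM (2.58 to 5.70) in layer V and 2.08 CPM (1.43 to 2.92) in young upper-layer neurons. For Nefh, 0 of 17 pairs of gates next to each other in the order of levels had an interval of the ratio above 1. No step between neighbours was thus resolved at this depth, while layer VI and young upper-layer neurons had intervals that did not overlap. The order was clearer for the others. Intervals lay above 1 for 6 of 17 neighbouring pairs for Vim, 5 for Ina, 4 each for Nes and Nefl, 3 for Nefm and 1 for Gfap. Pairs with 0 UMIs in both gates, most of them for Gfap, had no interval. As the gates were ordered by the same levels, no ratio could fall below 1. At the top, radial glia differed from the next gate for Vim (vascular and fibroblast cells) and for Gfap, and layer V from the next gate (upper-layer neurons without Igfbpl1) for Nefl and Nefm. Radial glia and dividing radial glia-type cells did not differ beyond counting error for Nes, nor did layer VI neurons and Cajal-Retzius cells for Ina.

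Within the radial glia gate, the 96 Gfap UMIs lay in 61 of the 259 cells, and 10 cells held 36.5% of them. At so few UMIs, a cell without one is not shown to lack Gfap. When the gate was split by astrocyte genes, the 141 cells with them held Gfap at 35.1 CPM and the 118 cells with few or none held it at 91.0 CPM, a ratio of 0.386 (0.249 to 0.591). Vim was at 1902 and 1819 CPM and Nes at 301 and 279 CPM in these parts of the gate. Cells with and without a Gfap UMI were then compared, a comparison chosen after the values were seen. Of the 14 radial glia or astrocyte genes, 5 had intervals of the ratio above 1, 1 below and 8 that held 1. The largest ratio was that of Hopx, and the others lay between 0.836 and 1.17. Cells with a Gfap UMI held Hopx, a gene of outer radial glia and astrocytes, at 460 CPM against 200 CPM in the others (ratio 2.30, interval 1.90 to 2.77). Of 8 detected genes of astrocyte maturation, Fgfr3 (ratio 0.475, interval 0.322 to 0.683) and Gja1 (ratio 0.493, interval 0.250 to 0.897) were lower, Clu was higher (ratio 1.20, interval 1.02 to 1.41) and 5 had intervals that held 1. Vim (1.05) and Nes (1.09) also had intervals that held 1. Their median depth was 7652 UMIs against 6792. Outside the radial glia gate Gfap had no more than 9 UMIs in any gate.

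Inhibitory neurons, which arise outside the cortex, held both Vim and Ina when their cells were summed. The 494 inhibitory neurons held Vim at 56.9 CPM (47.9 to 67.0), 8.56-fold (6.96 to 10.5) higher than layered neurons, while Nes, at 8.81 CPM, had a ratio of 0.813 (0.505 to 1.24). The Vim UMIs lay in 53 of the cells, and 10 cells held 43.7% of them. After thinning, 9 of 400 cells held both kinds of filament, 26 progenitor filaments alone and 150 neuronal filaments alone. The cells with a Vim UMI had the summed radial glia genes at 1106 CPM against 606 CPM in those without (ratio 1.82, interval 1.62 to 2.05). Ina was at 245 CPM, while Nefl, at 16.0 CPM, and Nefm, with 30 UMIs, were at 0.284 (0.202 to 0.388) and 0.164 (0.111 to 0.235) of their levels in layered neurons. Of 5 members at 10 CPM or more, Vim was at least 2-fold higher (against 6.94% of 9733 genes) and Nefl and Nefm were at least 2-fold lower (against 5.17%). Cajal-Retzius cells, the early neurons of layer I, also held Ina (541 CPM) far above Nefl (8.75 CPM) and Nefm (19.3 CPM), from 33 cells, and held Vim at 15.8 CPM.

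Cells of the oligodendrocyte lineage and vascular and fibroblast cells held mainly the progenitor set, whereas Nes, Vim and Gfap made up 21.9% of the 32 filament UMIs of microglia. Cells of the oligodendrocyte lineage held Vim at 759 CPM and Nes at 211 CPM when not dividing, and at 712 and 217 CPM when dividing. The name of the dividing gate was less well borne out by genes that it did not use. Sox10 was at 35.3 CPM in it against 198 CPM in the cells that were not dividing, and Lhfpl3 at 31.8 against 343 CPM. The cells of the lineage that were not dividing also held Nefm at 26.9 CPM (19.0 to 37.1) and Ina at 44.4 CPM, both above radial glia. Microglia held Ina at 137 CPM, and Nefm at 19.6 CPM (4.04 to 57.3) from 3 UMIs of 1 cell. The order of these cells and microglia for Nefm was thus not resolved. Vascular and fibroblast cells held Vim at 1227 CPM and Nes at 136 CPM, and 1 cell held 137 of their 887 Vim UMIs. Without it Vim was at 1184 CPM.

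Genes of related function were listed by role and followed over the same gates. Of the 8 other cytoplasmic intermediate filament genes, Synm (synemin, a partner of vimentin and desmin), Iffo2 and Des (desmin, the filament of muscle cells) reached their highest levels in vascular and fibroblast cells, at 130 CPM, 30.4 CPM and 22.1 CPM. Prph, the peripherin gene, was at 6.93 CPM or less in every gate. Of the 2 that reached 10 CPM in radial glia or layered neurons, 0 were at least 2-fold higher in radial glia and 1, Iffo2, was lower (3.49 against 20.6 CPM), against 23.3% and 20.2% of all genes. Of the 5 cytolinkers, of which 3 reached 10 CPM and which tie filaments to other parts of the cytoskeleton, Plec (plectin) was at 40.7 CPM in radial glia and 6.09 CPM in layered neurons, a ratio of 6.69 (5.07 to 8.72), whereas Macf1 (ratio 0.909) and Dst (ratio 0.569) were not 2-fold different.

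Genes of axon growth, and 4 of 7 genes of neurofilament transport, were lower in radial glia than in layered neurons. Of the 7 genes for the transport and turnover of neurofilaments, 4 were at least 2-fold lower (against 20.2% of all genes, with a median log2 ratio of -2.09 against -0.01), among them Kif5c, a kinesin motor (161 against 684 CPM), Klc1, a kinesin light chain (45.4 against 301 CPM), and Cdk5r1, the activator of Cdk5 (47.1 against 475 CPM). All 4 axon growth genes were at least 2-fold lower (median log2 ratio -3.20), against the same 20.2%. Layered over newborn neurons, 3 of the 4 axon growth genes were at least 2-fold higher, Stmn2 by 3.29-fold (3.12 to 3.47), Gap43 by 3.12-fold (2.88 to 3.39) and Map1b from 899 to 2695 CPM, while 0 of the 7 transport genes were, against 8.37% of all genes. In deep over upper layers 1 axon growth gene, Gap43, was at least 2-fold higher (2.35, interval 2.31 to 2.39), against 6.22% of all genes, and 0 transport genes were 2-fold different in either direction. In layer V over layer VI, 1 axon growth gene, Uchl1, was at least 2-fold higher (2.10, interval 2.04 to 2.16), against 2.04% of all genes, and Gap43 had a ratio of 1.65 and Stmn2 of 1.37.

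The genes, outside the 7 members and the genes that set the gates, that were most like each member over the 18 gates were found among 7550 genes that reached 50 CPM in a gate. Among the members, Nefl and Nefm were nearer to each other (r = 0.91) than to any of these genes, and Vim was nearer to Nes (r = 0.97) than to the last of its 3. For Nes these were Ctdsp2 (r = 0.98), Notch1 (0.97) and Zcchc24 (0.97), and for Vim Notch1 (0.97), Mmp14 (0.97) and Ctdsp2 (0.97). For Gfap they were Plcd4 (0.96), P4ha3 (0.94) and Veph1 (0.94). Ina was followed by Clec2l, Psd and Snap25 (0.96 each), Nefl by Cabp1 (0.90), S100a10 (0.90) and Pcdh7 (0.89), Nefm by Rhou (0.87), Fam124a (0.86) and Gm45176 (0.86), and Nefh by Hs3st5 (0.91), Rtn4r (0.89) and Kcnb2 (0.89). The likeness of Nefh rests on levels of 8.75 CPM or less, and that of Gfap mainly on the radial glia gate.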

How the data were processed

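The deposited file was a table of raw UMI counts per gene and cell, which the authors had made from 1 WT library. Per the submitters' processing notes, STAR, Cell Ranger 2 and Seurat were used with mm9, and the annotation and how cells were called are not given in the sources used here. Cells with at least 200 detected genes were kept. Cells were placed in gates by limits on summed UMIs and on the number of distinct marker genes, and by rules that kept out cells with markers of other classes. The UMIs of each gate were then summed and given as CPM, without mitochondrial genes. Exact Poisson intervals were used for levels, exact conditional binomial intervals for ratios and exact binomial intervals for shares. With 1 library there were no replicates and no test. A gene with 0 UMIs was given the limit of 3 counts. Genes at 10 CPM or more in either group and at least 2-fold different were counted as background, and all members were named.

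For shares of cells, each cell was thinned to 2000 UMIs (seed 1). Doublets were marked by Scrublet, kept in the main values and left out in an alternative. Likeness was Pearson's r of log2(CPM + 10) over 18 gates, and the 3 nearest genes were named. Of the related lists, the highest genes were named. Promoter sequences are from RefSeq, GRCm38.p6. Members and lists were chosen with earlier results of these data known, and the limits on marker UMIs were set after marker counts were seen. Python 3.11.15, numpy 2.4.6, scipy 1.17.1, pandas 2.3.3 and scanpy 1.11.5 were used. Scripts were tested on simulated data.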

Additional observations from a re-analysis of the deposited data

How the results depend on the processing

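The 10 main ratios were recomputed under 6 alternatives. Of these 60 values, 16 lay outside the counting interval of the reported value and 0 reversed. Outside these, without cells marked by Scrublet, Nefl in radial glia over newborn neurons turned from 0.256 to 2.19. Other ratios that crossed 1, such as Nes in layer V over layer VI (0.878 to 1.13), had a counting interval that held 1 before. Without cells marked by Scrublet, layered over newborn neurons gave 7.86 for Ina, 35.2 for Nefl and 6.01 for Nefm. With stricter marker limits Ina was 5.34 and Nefm 1.72 in that comparison, Vim in newborn over layered neurons was 14.6, and Ina in deep over upper layers was 3.88. With looser limits these were 3.40, 4.34, 4.96 and 2.83, and Nefl in deep over upper layers was 2.65. As a mean over cells, Ina was 5.04 in layered over newborn neurons and 4.03 in deep over upper layers, Nefl was 2.56 in deep over upper layers, and Nes was 21.3 in radial glia over layered neurons. Thinning to 1000 UMIs in place of 2000 lowered the share of cells with Vim to 73.2% in radial glia and 5.61% in newborn neurons, with Ina to 3.27% in newborn and 42.4% in layer VI neurons, and with Nefl to 13.2% in layer V neurons. Fewer UMIs per cell were then kept, and more of the shallow cells. The cause of these shifts was not tested. Leaving out the cell with the most UMIs, and levels without marked cells, were added after seeing the data. No paired analysis was possible because the table gives its cells as 1 library, with no animal or replicate named. Depth limits Nefh (244 UMIs) and Gfap (165 UMIs) most.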

Other observations

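More Nefl and Nefm UMIs lay outside the gates than in them, at 53.8% and 52.3% of the library. Of the cells in no gate, 1574 excitatory neurons (with 3 or more UMIs of Neurod2 and Neurod6 together) held 3 or more UMIs of layer V or of layer VI genes, and had a median of 13003.5 UMIs. They held Nefl at 131 CPM (126 to 136), Nefm at 159 CPM (153 to 164) and Ina at 248 CPM (241 to 255), and Scrublet marked 6.04% of them. Vim was at 28.3 CPM (26.1 to 30.7) in the same neurons, and Nes at 13.7 CPM (12.2 to 15.4).

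The 608 of these neurons with 3 or more UMIs of both layers held Nefl at 164 CPM (156 to 173), near the 158 CPM of the layer V gate, and Nefm at 189 CPM (181 to 198), above its 144 CPM. Ina was at 283 CPM, below the 460.1 CPM of layer V. Bcl11b, a gene of neurons that project below the cortex, was at 59.7 CPM in these cells and at 751 CPM in the layer V gate. Scrublet marked 8.55% of the 608 cells. A further 664 excitatory neurons in no gate had fewer than 3 UMIs of layer V and of layer VI genes. They held Vim at 113 CPM (102 to 126) and Nes at 37.2 CPM (30.7 to 44.7), against 50.7 and 26.2 CPM in the newborn gate. Fabp7, a gene of the radial glia gate, was at 995 CPM in them, against 47.0 CPM in young upper-layer neurons. Cells that met the radial glia limits were kept out of the newborn and layered gates, so the Fabp7 difference was partly set by the gating. How far the Vim and Nes levels of the 664 neurons follow from this rule was not tested. These groups were formed after the values of the gates were seen, and were not tested.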
